A study of Mus musculus with 3 samples.

Results

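The genes described here are 8 mouse genes of programmed cell death: the caspases Casp1, Casp8 and Casp9, the gasdermins Gsdmd and Gsdme, and the necroptosis genes Ripk1, Ripk3 and Mlkl. They were chosen by gene symbol, and all 8 had a row among the 17285 rows of the deposited table. RNA was sequenced from B16, a mouse melanoma cell line, that stably carried an empty vector, in 3 samples titled as Mock replicates 1, 2 and 3. No sample had another genotype or any treatment, so the samples form 1 group and no conditions could be compared. All samples come from this 1 line, and the labels do not say whether they were separate cultures or how many clones the line holds. A p-value here therefore speaks for these 3 libraries alone. It reflects read sampling and, for the test against a fixed level, the spread among the libraries, estimated with the help of all genes. That spread may be technical.

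Apoptosis dismantles a cell through caspases, proteases that initiator members such as caspase-8 and caspase-9 switch on. Lytic death instead breaks the plasma membrane: in pyroptosis caspase-1 cuts gasdermin D so that it forms pores, and in necroptosis the kinases RIPK1 and RIPK3 act through the pore-forming pseudokinase MLKL. Caspase-8 links the routes, since it can cut RIPK1 and RIPK3 and so hold necroptosis back, and gasdermin E, once cut during apoptosis, can turn it into lysis.

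The libraries held 9328087 to 9456501 counts and 13192 to 13437 genes with a count. CPM sets a gene's reads against a scaled library total of 1000000, and 1 read was worth about 0.106 CPM. A gene with no read in any library could still lie at up to 0.131 CPM, the upper end of its exact 95% Poisson interval. The floor used for ratios was 0.106 CPM, the level of 3 counts over the group. Such limits and intervals cover counting error only. The label of pigment cells was met: 7 of 7 melanocyte markers were above 1 CPM, with summed levels of 17280 to 18342 CPM per library. Tyrp1 made up 11881 to 12620 CPM of these sums, and Tyr was the lowest marker at 6.52 CPM, with fractional counts. Of 8 measured macrophage and leukocyte markers 2 were above 1 CPM, Cd68, which encodes a lysosomal glycoprotein, and Fcer1g. Csf1r, Adgre1 and Tyrobp had no count. Lyz2 was unresolved at 0.602 CPM, and Laptm5 (8 reads) and Cd14 (4 reads, all in replicate 1) were below 1 CPM. Ptprc and Itgam had no row. The summed level of the list was 798 to 840 CPM, of which Cd68 made up 792 to 834 CPM. The extraction text in the labels also speaks of organs, while every sample label names the cell line.

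The promoters of both members without a read and of 2 members well above 1 CPM are shown, as the sequence next to the start of these RNAs. RefSeq (GRCm38.p6) promoters matched 7 of the 8 members, all but Gsdmd. Each run is the 250 bases before the annotated start, 5′ to 3′ on the gene's strand, and capitals mark CG dinucleotides. Casp1 (chr9:5298267-5298516, plus strand) and Ripk3 (chr14:55788858-55789107, minus strand) had no read in any library. Mlkl (chr8:111338206-111338455, minus strand) had the most reads of the members, and Casp9 (chr4:141793362-141793611, plus strand) was well above 1 CPM.
Casp1: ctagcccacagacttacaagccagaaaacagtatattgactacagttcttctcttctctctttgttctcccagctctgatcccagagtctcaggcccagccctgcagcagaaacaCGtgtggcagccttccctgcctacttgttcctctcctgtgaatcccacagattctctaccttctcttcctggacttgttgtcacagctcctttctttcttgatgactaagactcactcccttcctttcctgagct
Ripk3: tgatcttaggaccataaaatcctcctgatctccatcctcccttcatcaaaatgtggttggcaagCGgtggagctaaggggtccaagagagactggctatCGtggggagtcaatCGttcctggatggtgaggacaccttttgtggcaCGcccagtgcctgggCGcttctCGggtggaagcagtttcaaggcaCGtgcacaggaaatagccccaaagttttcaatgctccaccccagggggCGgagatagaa
Mlkl: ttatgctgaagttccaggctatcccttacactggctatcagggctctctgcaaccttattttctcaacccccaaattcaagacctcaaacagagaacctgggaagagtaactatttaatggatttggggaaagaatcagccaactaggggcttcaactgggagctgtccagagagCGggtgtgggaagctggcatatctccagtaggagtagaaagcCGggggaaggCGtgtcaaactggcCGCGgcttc
Casp9: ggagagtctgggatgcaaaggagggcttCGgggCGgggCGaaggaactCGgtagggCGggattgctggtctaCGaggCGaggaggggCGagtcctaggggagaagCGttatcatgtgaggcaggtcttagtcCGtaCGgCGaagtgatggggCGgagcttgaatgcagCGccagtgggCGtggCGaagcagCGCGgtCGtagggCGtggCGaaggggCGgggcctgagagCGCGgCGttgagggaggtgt

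The Casp1 promoter held 1 CG, and 7.87% of the 32851 promoters of the table held fewer. Mlkl and Casp8 held 5 each (44.4% held fewer), Ripk3 held 8 (57% held fewer), and the median of all promoters was 6. Gsdme held 15, Casp9 25, and the pair of annotated Ripk1 promoters 19 and 32. The windows of Casp8 (chr1:58802252-58802501) and Gsdme (chr6:50261770-50262019) and the Ripk1 window with 32 CG lie inside the gene positions given below. They precede RefSeq starts within those genes, not the outermost annotated start. Mlkl, with the most reads of the members, held fewer CG than Ripk3, which had no read. Casp1, also without a read, held the fewest. Whether the number of CG goes with the reads was not tested. The GC box GGGCGG, the letters bound by Sp1-type factors, was searched on both strands, and each copy holds a CG of its own. It occurred in the windows of Casp9 (4), Ripk1 (2 and 4), Ripk3 (1) and Gsdme (1) and in 32.7% of all promoters. These counts describe letters only, and no binding or methylation was measured here.

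RNA levels of the necroptosis genes were uneven. Mlkl and Ripk1 were well above 1 CPM in every library, whereas Ripk3, the kinase that phosphorylates MLKL, had no read in any. Of the 8 members 5 were above 1 CPM, 1 was below and 2 had no count. The test was edgeR's quasi-likelihood F test against 1 CPM with Benjamini-Hochberg adjustment over the 14408 genes with a count. Over all of those genes 74.3% were above and 20.2% below, and 16.6% of the table's rows had no count. The count of members is too small to set apart from those shares.

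**Figure D1:**
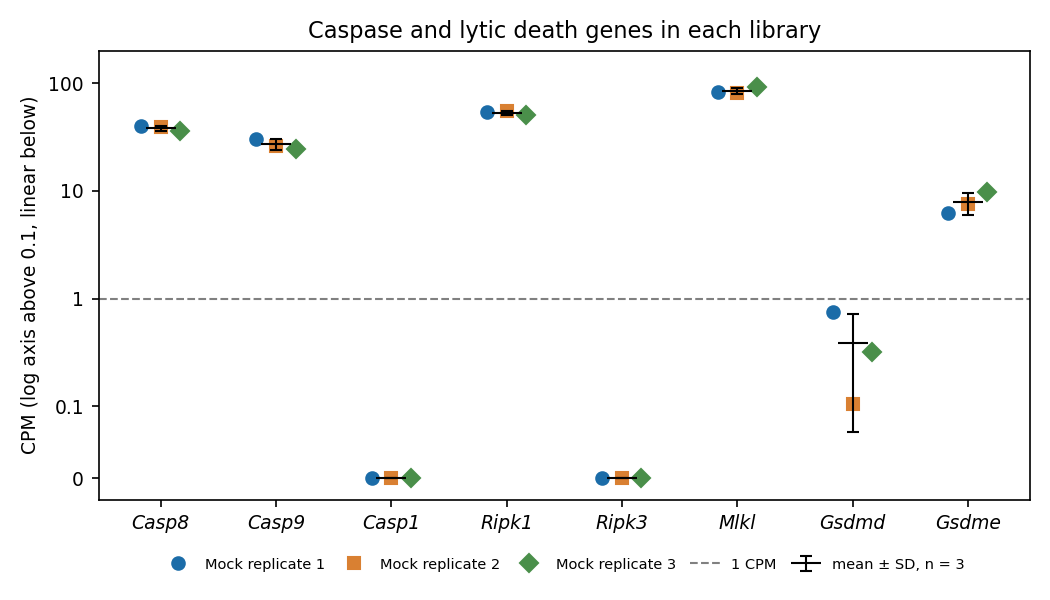
Level of each member in CPM (vertical axis, logarithmic above 0.1 and linear below) in the 3 Mock libraries, with the mean ± SD of the 3 as black bars and 1 CPM as a dashed line. Mlkl, Ripk1, Casp8 and Casp9 lie between 24.5 and 91.2 CPM, Gsdme between 6.20 and 9.76 CPM, Gsdmd under 1 CPM, and Casp1 and Ripk3 at 0.

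Ripk1 encodes the kinase that joins tumour necrosis factor receptor complexes and passes on either survival or death signals. It is at chromosome 13, 34002363 to 34037147, plus strand (GRCm38, as for all positions). Its level was 53.95, 54.8 and 50.8 CPM in replicates 1, 2 and 3, or 53.2 ± 2.11 CPM (mean ± SD, n = 3), from 1501 reads. The libraries differed by a ratio of 1.08 from highest to lowest. Its log2 distance to 1 CPM was 5.73 (edgeR adjusted p = 4.00e-13), above in 3 of 3 libraries. Of its annotated exon bases 6.12% are shared with the pseudogene Gm17084 on the same strand and 2.89% with Serpinb6a on the other, so reads there can be counted for either gene.

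Ripk3 (chromosome 14, 55784995 to 55788865, minus strand) encodes the kinase that RIPK1 or ZBP1 recruits through a shared interaction motif. It had 0 reads in replicates 1, 2 and 3, which allows up to 0.131 CPM. No word of 31 bases in its annotated transcripts occurs in the transcripts of another gene, so its reads could not be shared with a copy among these transcripts. At 1 CPM, 28.2 reads would be expected over the 3 libraries.

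Mlkl (chromosome 8, 111311797 to 111338177, minus strand), the membrane-permeabilising end of the pathway, stood at 83.2, 80.8 and 91.2 CPM, or 85.1 ± 5.46 CPM (n = 3), from 2401 reads. Replicate 3 was the highest, and the libraries differed by a ratio of 1.13. The log2 distance to 1 CPM was 6.41 (edgeR adjusted p = 2.13e-13), above in 3 of 3 libraries. Its transcripts share no word of 31 bases with other genes. Per kilobase of annotated exon, Mlkl was 797-fold higher than Ripk3 set to the floor of 3 counts over the group. By the longest annotated transcript the value was 785-fold. Both would be lower with Ripk3 at its limit of 0.131 CPM.

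Caspase genes split in the same way between initiators of apoptosis with many reads and the inflammatory caspase with none. Casp8 (chromosome 1, 58795374 to 58847503, plus strand), the protease of death receptor complexes, stood at 39.6, 39.3 and 35.7 CPM, or 38.2 ± 2.16 CPM (n = 3), from 1079 reads. Replicate 3 was the lowest. Its log2 distance to 1 CPM was 5.26 (edgeR adjusted p = 2.47e-12), above in 3 of 3 libraries. Of the 31-base words of its transcripts 8.64% occur in transcripts of other genes.

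Casp9 (chromosome 4, 141793612 to 141815976, plus strand), which cytochrome c and APAF1 activate downstream of mitochondria, stood at 30.4, 26.0 and 24.5 CPM, or 27.0 ± 3.10 CPM (n = 3), from 761 reads. Here replicate 1 was the highest. The log2 distance was 4.75 (edgeR adjusted p = 6.01e-11), above in 3 of 3 libraries. The antisense neighbours Cela2a and Ctrc each overlap 1.81% of its exon bases.

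Casp1 (chromosome 9, 5298517 to 5307265, plus strand), the protease of inflammasomes that matures interleukin-1β and cuts gasdermin D, had 0 reads in every library. It could lie at up to 0.131 CPM. Its annotated transcript shares no 31-base word with another gene, including the neighbouring inflammatory caspases. Per kilobase of annotated exon, Casp8 was 186-fold higher than Casp1 set to the floor over the group, and 208-fold higher by the longest transcripts. Both would be lower with Casp1 at its limit of 0.131 CPM.

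The gasdermins, whose cleaved amino-terminal parts form membrane pores, were both scarce next to Mlkl, and Gsdme was the one above 1 CPM. Gsdme (chromosome 6, 50188888 to 50263862, minus strand), the pore former that links apoptosis to lysis, stood at 6.20, 7.53 and 9.76 CPM, or 7.83 ± 1.80 CPM (n = 3), from 221 reads. Its log2 distance to 1 CPM was 2.97 (edgeR adjusted p = 1.27e-07), above in 3 of 3 libraries. Replicate 3 was the highest and replicate 1 the lowest.

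Gsdmd (chromosome 15, 75862327 to 75867408, plus strand), the pore former downstream of caspase-1, had 7, 1 and 3 reads. These were 0.748, 0.106 and 0.318 CPM, or 0.391 ± 0.327 CPM (n = 3), and the pooled 11 reads gave 0.390 CPM with an exact 95% Poisson interval of 0.195 to 0.697 CPM. It was below 1 CPM at a log2 distance of -1.36 (edgeR adjusted p = 0.0260), lower in 3 of 3 libraries. The call was lost without replicate 2 (0.121), without replicate 3 (0.173), against 0.5 CPM (0.529) and by DESeq2's Wald test (0.660), and the adjusted p ranged from 9.72e-04 to 0.660 over the alternatives. Over the whole table the Wald test placed 0 genes below 1 CPM, and 0 before adjustment (unadjusted p under 0.05). The loss of the Gsdmd call by that test was therefore fixed in advance. Gsdmd shares no 31-base word with other genes.

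Levels of different genes can be compared only per length, so CPM was divided by the kilobases of all annotated exons merged. The order was Mlkl at 36.9 ± 2.37, Casp8 at 13.2 ± 0.748, Ripk1 at 6.37 ± 0.252, Casp9 at 5.19 ± 0.596, Gsdme at 0.614 ± 0.141 and Gsdmd at 0.164 ± 0.138 CPM per kilobase (n = 3). No range of a member with reads overlapped that of its neighbour in this order. The closest neighbours were Ripk1, whose lowest library was at 6.09 CPM per kilobase, and Casp9, whose highest was at 5.86. Casp1 and Ripk3, both without reads, could not be ordered. The median of the 8 members was 2.90 CPM per kilobase, beside 2.86 over the 16838 genes of the table with a length. Mlkl exceeded 91.3% of those genes, Casp8 76.5%, Ripk1 62.7%, Casp9 59.1%, Gsdme 38.5% and Gsdmd 32.7%.

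The length chosen moved these values but not the order. Gsdme was the most affected, because its merged exons span 12742 bases and its longest annotated transcript 4628: it stood at 1.69 CPM per kilobase of that transcript. By the same measure Mlkl stood at 42.5, Casp8 at 14.8, Ripk1 at 8.22, Casp9 at 6.92 and Gsdmd at 0.218 CPM per kilobase. Over all reads Gsdme was 3.75-fold higher than Gsdmd per kilobase of merged exon (exact 95% binomial interval 2.05 to 7.62) and 7.78-fold higher by the longest transcripts (4.26 to 15.8). The log2 difference of Gsdme over Gsdmd was 0.63, 3.73 and 2.52 in replicates 1, 2 and 3.

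**Figure D2:**
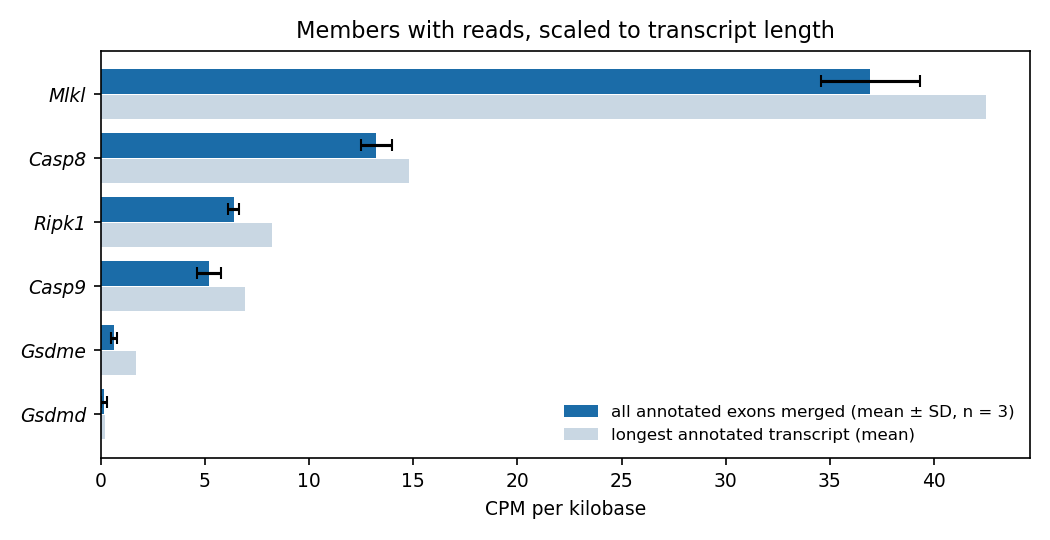
CPM per kilobase (horizontal axis, linear from 0) of the 6 members with reads, by merged annotated exons (dark bars, mean ± SD of 3 libraries) and by the longest annotated transcript (light bars, mean). Mlkl is at 36.9 or 42.5, Casp8 at 13.2 or 14.8, and both gasdermins are at 1.69 or less under either length.

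Ratios could also be set between members and their partner genes. Mlkl was higher than Ripk1 per kilobase of merged exon by 2.53 ± 0.15 on the log2 scale (SD, n = 3), and higher than Casp8 by 1.48 ± 0.17. Casp8 was higher than Ripk1 by 1.05 ± 0.03, and higher than Cflar, which encodes the caspase-8 partner and inhibitor FLIP, by 1.65 ± 0.11. The Cflar value depended on length, at 0.86 by the longest transcripts. Casp8 was higher than its adaptor gene Fadd by 0.07 ± 0.17, or by 0.24 by the longest transcripts, so the length decided whether the difference exceeded the spread between libraries. Casp9 and Apaf1, which encodes the scaffold of the apoptosome, differed by 0.15 ± 0.19, and by 0.11 by the longest transcripts, less than that spread under either length. Cflar, Fadd and Apaf1 were chosen after their values were seen. These are descriptions of 3 libraries without a test.

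Between the libraries, 0 of the 5 members with a mean of at least 10 counts varied beyond read sampling by a Poisson deviance test with Benjamini-Hochberg adjustment, where 3.31% of the 11000 genes tested did. At an unadjusted p under 0.05 there were 3 of these 5 members, against 14.9% of all genes. They were Gsdme (adjusted p = 0.224), Casp9 (adjusted p = 0.292) and Mlkl (adjusted p = 0.294). Gsdme and Mlkl had their highest level in replicate 3, and Casp9 had its lowest there. The adjusted values were 0.684 for Casp8 and 0.778 for Ripk1. As a measure without a test, the coefficient of variation beyond sampling by edgeR was 9.55% for Gsdme and 5.02% for Casp9, against 6.10% and 3.46% on the trend for genes of their level. It was 3.32% for Mlkl, also above its trend (2.68%), and 3.11% for Casp8 and 2.65% for Ripk1, both below theirs (3.27% and 3.07%).

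The rest of the machinery was read from 8 lists of pathway genes, 83 in all, of which 78 had a row. Of these, 54 were above 1 CPM, 10 below, 3 unresolved and 11 without a count, and 10 of the genes not above 1 CPM were inflammasome genes, with 5 more in each of the gasdermin and the death receptor and ligand lists. In each list, genes with the most CPM, those below or unresolved and those without a count are named.

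**Figure D3:**
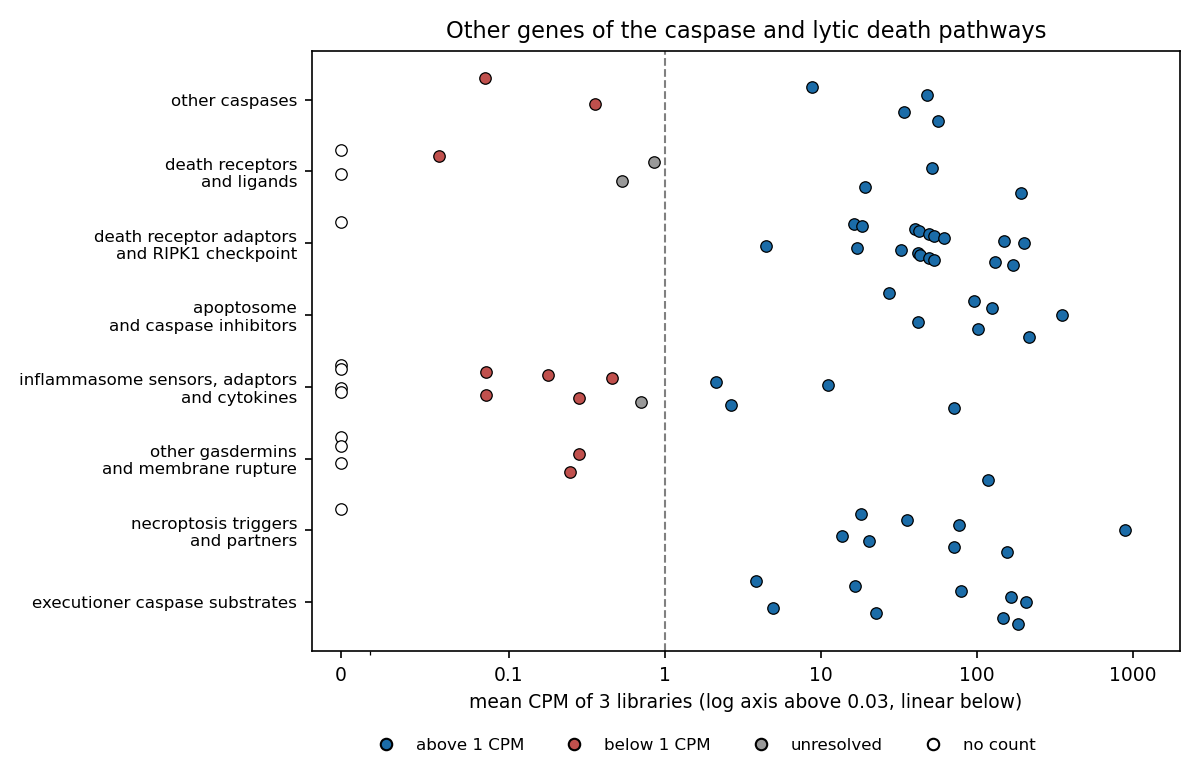
Mean CPM of 3 libraries (horizontal axis, logarithmic above 0.03 and linear below) for the 78 measured pathway genes, 1 point per gene and 1 band per list, coloured by the edgeR call against 1 CPM (dashed line). All 7 apoptosome and inhibitor genes and all 9 genes of caspase substrates and their partners lie above 1 CPM. By contrast, 10 of 14 inflammasome genes lie below 1 CPM or at 0.

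Among the other caspases, 4 of 6 were above 1 CPM, at a list median of 4.78 CPM per kilobase. Casp2, a caspase of the PIDDosome complex, reached 56.4 ± 2.32 CPM. The inflammatory caspases again were low: Casp4, the mouse caspase-11 that senses lipopolysaccharide in the cytosol, had 10 reads (0.354 ± 0.0604 CPM, edgeR adjusted p = 0.00550) and Casp12 had 2 (adjusted p = 0.00160). Casp12 lost its call without replicate 1 (0.0510), and without replicate 2, which held all its reads, it had none left to test. Casp4 lost its call against 0.5 CPM (0.284). Casp14 had no row in the deposited table.

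Of 8 death receptor and ligand genes, 3 receptor genes and no ligand gene were above 1 CPM, at a list median of 0.198 CPM per kilobase. Tnfrsf1a, the receptor upstream of RIPK1, reached 191 ± 7.38 CPM and was higher than Ripk1 per kilobase by 3.53 ± 0.03 on the log2 scale. Tnfrsf1b reached 51.4 ± 1.79 CPM and the TRAIL receptor gene Tnfrsf10b 19.3 ± 1.55 CPM, the latter with fractional counts. The receptor gene Fas and the ligand gene Tnf had no count, and Fasl had 1 read (edgeR adjusted p = 6.10e-04). Without replicate 1 it had no read left to test. Tnfrsf25 was unresolved at 0.532 ± 0.283 CPM (adjusted p = 0.0560) and was called below when genes with under 10 counts were left out (0.0335). Tnfsf10, the TRAIL gene, was unresolved at 0.850 ± 0.279 CPM (adjusted p = 0.479).

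The adaptors and brakes around RIPK1 were present as RNA with 1 exception. Of 19 genes, 18 were above 1 CPM, at a list median of 9.78 CPM per kilobase. Tab2 and Map3k7, the TAK1 kinase complex that promotes survival signalling, reached 200 ± 7.34 and 171 ± 4.60 CPM. Mapkapk2, a kinase that phosphorylates RIPK1, reached 150 ± 6.79 CPM. Birc3, which encodes the ubiquitin ligase cIAP2, had no count, whereas its relative Birc2, a gene chosen after its values were seen, stood at 17.1 ± 1.28 CPM. Cflar stood at 53.5 ± 2.55 CPM and Fadd at 49.0 ± 3.54 CPM, both with fractional counts.

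Genes of the mitochondrial route that ends in caspase-9 were above 1 CPM in 7 of 7 cases, at a list median of 10.1 CPM per kilobase. Cycs, the somatic cytochrome c gene, reached 351 ± 24.6 CPM. Birc6, a large ubiquitin ligase that inhibits caspases, reached 216 ± 7.90 CPM, and Htra2, a mitochondrial protease that relieves such inhibition, 126 ± 5.62 CPM. Per kilobase, Cycs was higher than Casp9 by 4.31 ± 0.26 on the log2 scale, and Xiap, chosen after its values were seen, whose product binds and blocks caspase-9, was higher by 0.97 ± 0.24. Counts of Htra2 were fractional.

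Inflammasome genes were mostly scarce beside Casp1. Of 14 measured, 4 were above 1 CPM, 5 below, 1 unresolved and 4 without a count, at a list median of 0.0478 CPM per kilobase. Pycard, the adaptor ASC that joins sensors to caspase-1, had no count, nor had the sensor genes Nlrp6 and Nlrc4 or the cytokine gene Il1b. Each of these allows up to 0.131 CPM. The sensor genes Nlrp3 and Aim2 had 2 reads each, Nlrp1b 5, Card9 8 and Naip6 13, and these 5 were below 1 CPM (edgeR adjusted p from 7.24e-04 to 0.0144). Card9 lost its call without replicate 1 (0.0629), and Card9 and Naip6 lost theirs against 0.5 CPM (0.157 and 0.772).

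Those above 1 CPM were led by Nek7, a mitotic kinase that also binds NLRP3, at 71.9 ± 4.19 CPM. Naip2, a receptor for bacterial secretion system proteins, stood at 11.1 ± 0.523 CPM. Nlrp1a stood at 1.39, 3.29 and 3.29 CPM, and Naip5, chosen after its values were seen, at 2.24, 2.12 and 2.02 CPM, both with fractional counts. Nlrp1a was lowest in replicate 1, and it lost its call without replicate 2 (edgeR adjusted p = 0.0604) or replicate 3 (0.0508). Nlrp1a and Naip5 also lost their calls against 2 CPM (edgeR adjusted p = 0.143 and 0.644) and by DESeq2's Wald test (0.257 and 0.462). Il18 was unresolved at 0.708 ± 0.265 CPM (adjusted p = 0.185). Mefv had no row in the deposited table.

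Of the other gasdermin and rupture genes, 1 of 6 was above 1 CPM: Ninj1, whose product breaks the plasma membrane after pores have formed, at 117 to 120 CPM in the 3 libraries (118 ± 1.74 CPM). Per kilobase it was higher than Gsdme by 6.95 ± 0.31 on the log2 scale, or 5.74 by the longest transcripts. Gsdma, Gsdmc and Gsdmc3 had no count. Gsdmc4, with 8 reads, and Pjvk, with 7, were below 1 CPM (edgeR adjusted p = 0.00717 and 0.00220). Gsdmc4 lost its call without replicate 1 (0.103) or replicate 2 (0.0504), and Gsdmc4 and Pjvk lost theirs against 0.5 CPM (0.179 and 0.0752). The list median was 0.0679 CPM per kilobase, and Gsdma2, Gsdma3 and Gsdmc2 had no row in the deposited table.

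Triggers and partners of necroptosis were above 1 CPM in 8 of 9 cases, at a list median of 12.9 CPM per kilobase. The exception was Zbp1, the nucleic acid sensor that recruits RIPK3, which like Ripk3 had no read. Hsp90aa1 and Cdc37, a chaperone and its kinase-loading partner, reached 886 ± 31.6 and 156 ± 6.10 CPM. Ppm1b, a phosphatase, reached 76.6 ± 5.09 CPM. The receptor genes Tlr3 and Tlr4, whose signals can reach RIPK3 through the adaptor TRIF, stood at 13.6 ± 0.224 and 71.8 ± 1.23 CPM, and the TRIF gene Ticam1 at 20.4 ± 1.91 CPM. These last 3 genes were chosen after their values were seen.

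Genes of caspase substrates and their partners were above 1 CPM in 9 of 9 cases, at a list median of 4.69 CPM per kilobase. The chromatin condensation factor gene Acin1 reached 206 ± 8.26 CPM, with fractional counts, the DNA repair enzyme gene Parp1 184 ± 8.05 CPM and the nuclear lamina gene Lmnb1 165 ± 7.46 CPM. The 74.3% above and 20.2% below 1 CPM given above are shares of genes with a count, whereas the list counts include genes without one. Over all 17285 rows, 10711 genes were above, 2907 below and 2877 without a count. Beside these, 54, 10 and 11 of the 78 measured pathway genes were above, below and without a count.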

How the data were processed

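RNA from 3 samples of B16 cells with an empty vector was purified on NucleoSpin columns, and BGI made the libraries, per the labels' protocols. The submitters' processing notes name the build GRCm38.p6. Not given in the sources used here are the aligner, counter, annotation, strand use and RNA selection. Values in the authors' deposited table are estimated counts by gene symbol, not normalized. They were rounded, since 2270 rows differed from whole numbers by more than 0.005, and no member did. Totals were scaled by TMM factors of 1.0034, 0.9977 and 0.9989.

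Each gene with at least 1 count was tested against 1 CPM, two-sided, by edgeR 4.0.16 in R 4.3.3 (quasi-likelihood F, intercept alone, the p no smaller than that of a Poisson likelihood ratio test), and genes with a Benjamini-Hochberg adjusted p under 0.05 were called. Variation between libraries was tested by Poisson deviance with 2 degrees of freedom where the mean count was 10 or more. Pairs of libraries differed beyond sampling: 10.4% to 13.2% of genes had an unadjusted p under 0.05. Intervals came from scipy 1.17.1, plots from matplotlib 3.10.9. Lengths and positions came from GENCODE M21 (GRCm38). Alternatives used DESeq2 1.42.0, other scalings, filters and reference levels, and each library left out. The tests were checked on simulated counts, which for the test against 1 CPM had the same small variation beyond sampling for all genes. That check does not cover the larger variation that edgeR estimated at the level of Gsdmd (19.4% on the trend). The members and lists were chosen with earlier results of these data known. Named genes are all members and, in each list, the 3 with the highest mean CPM, those below or unresolved and those without a count. Genes outside this rule are marked in the text as chosen after their values were seen. Some genes that this rule names are not reported here.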

Additional observations from a re-analysis of the deposited data

How the results depend on the processing

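All 5 members above 1 CPM kept that call under every alternative run, whereas the call of Gsdmd below it did not hold. Its log2 distance was -1.36 by DESeq2's Wald test and -0.36 against 0.5 CPM, and it ran from -2.24 to -0.91 with each library left out. The members below 1 CPM accordingly numbered 0 by the Wald test and against 0.5 CPM, and 0 to 1 with a library left out.

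Counts of pathway genes moved mainly among those below 1 CPM. The Wald test gave 0 below for other caspases, death receptors and ligands, inflammasome genes and other gasdermins, and 2 inflammasome genes above. It placed 0 genes of the whole table below 1 CPM, so its losses of such calls were fixed in advance. With at least 10 counts required, there was 1 other caspase, 1 inflammasome gene and 0 other gasdermins below, since genes with fewer reads were not tested. Against 0.5 CPM these were 1, 3 and 0. Against 2 CPM, 3 death receptor and ligand genes were below and 2 inflammasome genes above. With each library left out, 1 to 2 other caspases, 0 to 1 death receptor and ligand genes and 1 to 2 other gasdermins were below.

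By the longest transcript, Mlkl stood at 42.5, Casp8 at 14.8, Ripk1 at 8.22, Casp9 at 6.92 and Gsdme at 1.69 CPM per kilobase. The other 225 values for members and lists kept their call, stayed within the spread (1 SD) or, for counts of genes, stayed within 1.5 times the count reported. For single list genes, 564 values kept their call, 25 lost it and 4 gained one. Of the 25 losses, 12 were by the Wald test. No called value changed sign. Against 0.5 CPM the unresolved Tnfsf10, Il18 and Tnfrsf25 changed sign, to log2 distances of 0.77, 0.50 and 0.09, without a call. Genes under about 1 CPM rest on few reads, and their calls are limited by depth. No paired analysis was possible because the samples form 1 group.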
